A study of Homo sapiens with 16 samples.

Results

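The genes described here were 10 ETS family transcription factors, namely ETS1 and ETS2, the PEA3 group (ETV1, ETV4 and ETV5), ETV6, the epithelial members ELF3 and EHF, ELF1, and ELK3. They were taken by gene symbol from a table of 42351 genes. All 10 were in the table and passed the filter on low counts, as did 15067 genes in all. PolyA RNA of 2 lung cancer cell lines was sequenced after 0, 3, 6 or 12 h of hepatocyte growth factor (HGF), the ligand of the MET receptor, with 2 replicates in each of the 8 conditions. The labels gave wt MET as A549 and MET∆14, the receptor that lacks exon 14, as NCI-H596, a lung adenosquamous carcinoma line. The labels gave 12 h without serum before HGF for both lines, the 0 h libraries included, whereas the study's methods describe a longer deprivation before HGF treatments. The comparisons asked how cells expressing wt MET or MET∆14 answered the ligand over time. Each MET status was present in 1 cell line, so that MET status and cell line cannot be told apart. Only the 0 h cells were without HGF, so that HGF and time in culture cannot be told apart either.

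ETS proteins share a DNA-binding domain that reads a GGAA core, and many of them are switched by the kinase cascade from RAS to ERK that receptors such as MET turn on. ETS1 and ETS2 are phosphorylated by ERK and drive genes of proteases and cell migration. ETV1, ETV4 and ETV5 are both transcribed and stabilised downstream of ERK, whereas ETV6 is a repressor. ELF3 and EHF are restricted to epithelia, ELF1 is broadly expressed, and ELK3 is a ternary complex factor that binds promoters together with the serum response factor SRF.

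Total counts ranged from 13226488 to 21970052 in wt MET and from 10158590 to 23909304 in MET∆14. Levels are given in CPM, the counts of a gene relative to the total of its library after scaling for composition. MET itself was at 1210 to 1540 CPM in wt MET libraries and at 370.0 to 443 CPM in MET∆14 libraries. CDKN2A, a gene deleted in A549, had 0 counts in all 8 wt MET libraries and 86.0 to 157 CPM in MET∆14 libraries. The squamous keratin KRT5 was at 1740 to 2460 CPM and the squamous factor TP63 at 96.5 to 164 CPM with MET∆14, against at most 0.242 and 2.56 CPM with wt MET. Markers of the lung epithelium were at or near 0 in both lines (NKX2-1 up to 1.27, NAPSA up to 1.16 and SFTPB 0 CPM), and so were the blood genes PTPRC (up to 0.163 CPM) and SPI1 (up to 0.202 CPM). The epithelial adhesion genes CDH1 and EPCAM did not exceed 12.6 and 2.97 CPM in wt MET, although KRT8 and KRT18 were high in both lines. The 2 MET∆14 libraries of 12 h stood furthest apart of all replicate pairs, with a chi-square per degree of freedom of 34.1 between their counts against 2.75 to 9.80 for the other pairs. The number of ETS genes called at 12 h with MET∆14 was 7 with either of them left out, as with both.

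The promoters of 3 genes are shown, which are not all of the genes with strong contrasts below. ETS1 had no matched RefSeq promoter, and the windows of ELF3 and ELF1, which begin in an annotated exon, were left out. Of those shown, ETS2 moved in opposite directions in the lines, ELK3 rose strongly with MET∆14, and EHF was far higher in 1 line. Each sequence shown is the 250 bases upstream of the RefSeq start in GRCh38.p14, on the plus strand, at chr21:38804933-38805182, chr12:96194125-96194374 and chr11:34624007-34624256. The RefSeq start of EHF lies 3164 bases downstream of the 5′ end of the gene in GENCODE, so that its window is inside the annotated gene. Capitals mark the ETS core GGAA on either strand (TTCC when read on the strand shown).
ETS2: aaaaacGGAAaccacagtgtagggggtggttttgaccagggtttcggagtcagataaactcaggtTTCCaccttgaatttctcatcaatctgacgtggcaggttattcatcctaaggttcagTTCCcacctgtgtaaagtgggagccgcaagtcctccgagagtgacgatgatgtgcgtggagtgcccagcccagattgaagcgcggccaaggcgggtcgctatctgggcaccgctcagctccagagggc
ELK3: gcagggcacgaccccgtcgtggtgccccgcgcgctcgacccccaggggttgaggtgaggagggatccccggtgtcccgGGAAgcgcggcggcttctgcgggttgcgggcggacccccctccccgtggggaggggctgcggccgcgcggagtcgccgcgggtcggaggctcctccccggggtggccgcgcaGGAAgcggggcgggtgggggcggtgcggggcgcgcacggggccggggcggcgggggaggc
EHF: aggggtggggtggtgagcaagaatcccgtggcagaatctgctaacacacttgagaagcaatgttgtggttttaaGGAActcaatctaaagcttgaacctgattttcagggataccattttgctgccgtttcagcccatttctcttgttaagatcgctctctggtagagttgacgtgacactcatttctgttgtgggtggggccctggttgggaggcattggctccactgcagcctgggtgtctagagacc

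These windows held 3 (ETS2), 2 (ELK3) and 1 (EHF) copies of GGAA, against a median of 3 over 35116 RefSeq promoters of the same length, of which 92.7% held at least 1. Their GC content was 54.4% in ETS2, 82.0% in ELK3 and 50.0% in EHF, against a median of 58.0%. RefSeq promoters were matched for 7 of the 10 genes, and ETS1, ETV4 and ETV5 were not among them. The longer ETS site CCGGAAGT, searched on both strands and holding the same core, was in 3.42% of all promoters and in none of the 7. The AP-1 letters TGANTCA were in 6.57% of all promoters and in none of the 7. The letters TATAAA were in 10.7% of all promoters and, of the 7, in those of ELF3 and ELF1.

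Before HGF the 2 lines held the ETS genes at different levels. To compare genes with each other, CPM were divided by the length of the annotated exons. In wt MET cells ETS1 (72.9 ± 12.9 CPM per kb, SD, n = 2) and ELK3 (67.9 ± 11.2) were highest, and their libraries overlapped. ELF1 followed at 29.9 ± 0.502 CPM per kb, above ETS2 (20.3 ± 1.24), ELF3 (17.8 ± 6.28) and ETV4 (16.9 ± 0.348). ELF3 overlapped both ETS2 and ETV4 there. ETV5 stood at 10.7 ± 0.586 CPM per kb, and ETV6 (1.86), ETV1 (0.885) and EHF (0.157) were the lowest, with no overlap between neighbours.

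In MET∆14 cells ETS2 was highest at 65.8 ± 0.586 CPM per kb, followed by EHF at 24.6 ± 0.0567 and ELF1 at 8.76 ± 0.365. ETS1 (4.88 ± 0.383) and ELF3 (4.79 ± 0.460) overlapped, as did ELK3 (2.62) and ETV6 (2.59), with ETV5 between these pairs at 4.15 ± 0.236. ETV4 (1.38) and ETV1 (0.244 CPM per kb) were lowest. All 10 genes differed between the lines at 0 h in edgeR's quasi-likelihood test, with p-values adjusted over all genes tested, of which 80.2% differed. Of these, 3 were higher with MET∆14 (40.6% of all genes), by log2 differences of 7.29 ± 0.15 (SE) for EHF, 1.70 ± 0.08 for ETS2 and 0.48 ± 0.14 for ETV6. The other 7 were lower (39.6% of all genes), led by ELK3 (-4.69 ± 0.12), ETS1 (-3.90 ± 0.13) and ETV4 (-3.60 ± 0.15). The difference of ETV6 was no longer called without wt MET 0 h replicate 2 (0.32, adjusted p = 0.0695).

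With wt MET, 9 of the 10 genes changed at some time after HGF (edgeR's quasi-likelihood F test over 3, 6 and 12 h), where 40.3% of all genes tested did. By their mean response 4 of these (ETS1, ETS2, ELF1 and ELK3) were higher and 5 lower, where 19.2% and 21.1% of all genes were, and EHF was not called. With MET∆14 also 9 were called, where 54.1% of all genes were, with 3 higher (ETS1, ELK3 and ETV5) and 6 lower, against 25.6% and 28.5% of all genes, and ETV4 not called. The median of the mean log2 response over the 10 genes was -0.34 with wt MET and -0.30 with MET∆14, against -0.05 over all genes tested in each line. Leaving out 1 library at a time gave 7 to 9 genes with wt MET and 7 to 10 with MET∆14. The genes whose calls were lost are given with their values below.

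By time, 3 genes were called with wt MET at 3 h (17.4% of all genes tested), 2 higher (10.3% of all genes) and 1 lower (7.16%). At 6 h they were 9 (34.2%), 3 higher (16.4%) and 6 lower (17.8%), and at 12 h 8 (35.1%), 4 higher (16.9%) and 4 lower (18.2%). With MET∆14, 7 were called at 3 h (31.7% of all genes), 3 higher (15.5%) and 4 lower (16.1%). At 6 h they were 8 (44.1%), 2 higher (21.6%) and 6 lower (22.5%), and at 12 h 7 (38.3%), 3 higher (18.3%) and 4 lower (20.1%). The count for wt MET at 3 h was 5 without wt MET 0 h replicate 2, and 6 or 5 without MET∆14 12 h replicate 1 or 2. The count for MET∆14 at 6 h was 5 without replicate 2 of its 0 h libraries.

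**Figure D1:**
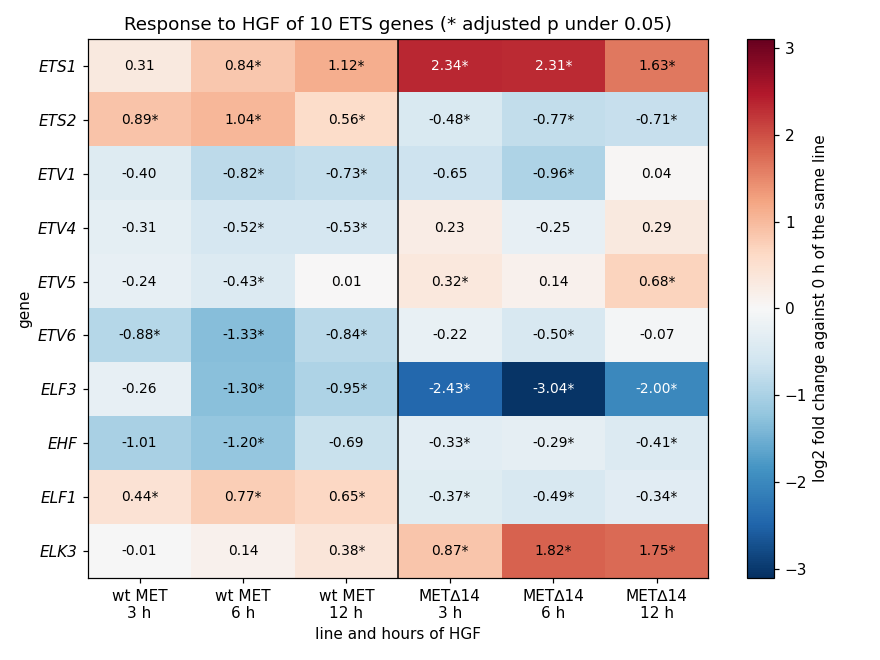
Response of the 10 ETS genes to HGF as log2 fold change against 0 h of the same line, for 3, 6 and 12 h in wt MET (left) and MET∆14 (right), with red for higher, blue for lower and a star for an adjusted p under 0.05. ETS1 and ELK3 were the genes with the strongest rises with MET∆14 (2.34 at 3 h and 1.82 at 6 h) and ELF3 the one with the strongest fall (-3.04 at 6 h).

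ETS1, an activator of protease and migration genes, lies on chromosome 11 (hg38, 128458761 to 128587558, minus strand). In MET∆14 cells it was at 33.0 and 36.9 CPM in the 2 libraries of 0 h, and at 185 and 168 CPM at 3 h, 162 and 185 CPM at 6 h and 111 and 106 CPM at 12 h. Each library with HGF was above both libraries without it, and the 12 h pair lay below the 3 h and 6 h pairs. The log2 fold change was 2.34 ± 0.12 at 3 h (5.05-fold, adjusted p = 6.34e-09), 2.31 ± 0.12 at 6 h and 1.63 ± 0.12 at 12 h, and the fall from 6 h to 12 h was called as well (-0.68 ± 0.11, adjusted p = 0.00111). In wt MET cells, which began 14.9-fold higher, the libraries were at 456 and 586 CPM at 0 h, 634 and 655 CPM at 3 h, 935 and 931 CPM at 6 h, and 1153 and 1107 CPM at 12 h. The groups of 0 h and 3 h were apart without overlap, but the 0 h pair was itself wide. The change at 3 h (0.31 ± 0.11) was not called (adjusted p = 0.0715), and it was called without replicate 2 of 0 h (0.53, adjusted p = 0.00567) and without MET∆14 12 h replicate 1 or 2 (adjusted p = 0.0276 and 0.0201), as well as by DESeq2 (adjusted p = 0.028). The later changes were 0.84 ± 0.11 at 6 h and 1.12 ± 0.11 at 12 h (adjusted p = 5.1e-06). ETS1 thus stood highest at 3 h and 6 h in one line and at 12 h in the other.

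The response of ETS1 differed between the lines by 2.03 ± 0.16 on the log2 scale at 3 h (adjusted p = 1.06e-06) and 1.47 ± 0.16 at 6 h, in favour of MET∆14. The difference at 12 h was 0.52 ± 0.16 (adjusted p = 0.0306). It was not called without wt MET 0 h replicate 2 (0.32, adjusted p = 0.133), without wt MET 12 h replicate 1 or 2 (0.56 and 0.49, adjusted p = 0.0653 and 0.0989), or without MET∆14 0 h replicate 1 (0.44, adjusted p = 0.136).

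ETS2, the close relative of ETS1, lies on chromosome 21 (hg38, 38805183 to 38824955, plus strand), with 2.25% of its exon bases also in an exon on the other strand. In wt MET cells it was at 96.4 and 105 CPM at 0 h, 186 and 188 CPM at 3 h, 201 and 214 CPM at 6 h, and 149 and 149 CPM at 12 h. In MET∆14 cells it was at 329.8 and 326 CPM at 0 h, 241 and 229.8 CPM at 3 h, 193 and 192 CPM at 6 h, and 189 and 211 CPM at 12 h. Every library with HGF was above both 0 h libraries in wt MET and below both in MET∆14. At 6 h the lines, which began 3.25-fold apart, lay at 201 and 214 against 193 and 192 CPM.

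The rise of ETS2 with wt MET was 0.89 ± 0.08 at 3 h, 1.04 ± 0.08 at 6 h and 0.56 ± 0.08 at 12 h on the log2 scale, with adjusted p between 3e-07 and 0.000103. The fall with MET∆14 was -0.48 ± 0.08, -0.77 ± 0.08 and -0.71 ± 0.08, with adjusted p between 1.73e-06 and 0.000241. The difference of the responses was -1.37, -1.81 and -1.27 at the 3 times, and was largest at 6 h (SE 0.11, adjusted p = 6.56e-08). These calls held with each library left out. In an edgeR model with 1 time course shared by both lines, ETS2 had a mean log2 change of -0.01 and was not called (adjusted p = 0.758). The formula is that of the study, which used DESeq2 and also profiled cells with amplified wt MET.

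Per kb of exon, ETS1 stood at 0.0696 and 0.0788 of the level of ETS2 in the MET∆14 libraries of 0 h. The ratio was 0.536 and 0.510 at 3 h, 0.584 and 0.670 at 6 h, and 0.409 and 0.350 at 12 h, above both 0 h libraries in each case and always below 1. In wt MET libraries the ratio was 3.29 and 3.88 at 0 h, 2.37 and 2.42 at 3 h, 3.24 and 3.03 at 6 h, and 5.41 and 5.18 at 12 h, so that ETS1 was the higher of the pair throughout.

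ELF1, a widely expressed ETS factor on chromosome 13 (hg38, 40931924 to 41061440, minus strand), also moved in opposite directions. It was at 131 and 135 CPM in wt MET at 0 h and at 173 and 189 CPM, 232 and 222 CPM, and 209 and 208 CPM at 3, 6 and 12 h. In MET∆14 it was at 37.7 and 40.0 CPM at 0 h, and at 30.9 and 29.5 CPM, 27.8 and 27.5 CPM, and 31.5 and 29.7 CPM later. No library with HGF overlapped the 0 h pair of its line. The log2 fold changes were 0.44 ± 0.07, 0.77 ± 0.07 and 0.65 ± 0.07 with wt MET, and -0.37 ± 0.08, -0.49 ± 0.08 and -0.34 ± 0.08 with MET∆14, all called, with a difference of -1.26 ± 0.11 at 6 h (adjusted p = 1.09e-06). These calls held with each library left out, and ELF1 too was not called with a shared time course (0.09, adjusted p = 0.852).

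ELK3, a ternary complex factor that represses transcription until it is phosphorylated by ERK, lies on chromosome 12 (hg38, 96194375 to 96269824, plus strand), with 4.5% of its exon bases in an antisense exon. In MET∆14 cells it was at 11.6 and 12.8 CPM at 0 h, 23.9 and 20.8 CPM at 3 h, 41.0 and 44.9 CPM at 6 h, and 40.9 and 41.2 CPM at 12 h. The libraries of 3 h lay between those of 0 h and those of 6 h and 12 h, without overlap. The rise was 0.87 ± 0.13 at 3 h, 1.82 ± 0.12 at 6 h (3.52-fold, adjusted p = 2.88e-08) and 1.75 ± 0.12 at 12 h, and the step from 3 h to 6 h was called (0.95 ± 0.12, adjusted p = 0.000178).

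In wt MET cells ELK3 was at 278 and 352 CPM at 0 h, 303 and 321 CPM at 3 h, 344 and 350.0 CPM at 6 h, and 417 and 401 CPM at 12 h. The 3 h and 6 h pairs fell within the range of the 0 h pair, and the 12 h pair lay above it. The value at 12 h (0.38 ± 0.10, adjusted p = 0.00902) was not called without replicate 1 of 0 h (0.22, adjusted p = 0.121) or of 12 h (0.34, adjusted p = 0.083). The test over the 3 times (adjusted p = 0.0152) was not passed without replicate 1 of 3 h (0.0602) or either replicate of 12 h (0.155 and 0.0788). At 6 h the change of 0.14 ± 0.10 (adjusted p = 0.313) was -0.02 without replicate 1 of 0 h and 0.34, and called, without replicate 2 (adjusted p = 0.0183). The difference between the lines was called at all 3 times and was largest at 6 h (1.68 ± 0.16, adjusted p = 2.26e-06), and it held with each library left out.

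ELF3, an activator of epithelial differentiation genes, lies on chromosome 1 (hg38, 202007945 to 202017183, plus strand). Of its exon bases, 9.24% are shared with another gene on the same strand and 9.24% with ELF3-AS1 on the other, and the use of strand in counting is not given in the sources used here. In MET∆14 cells it was at 36.8 and 32.1 CPM at 0 h, 5.94 and 6.74 CPM at 3 h, 4.42 and 3.98 CPM at 6 h, and 8.59 and 8.62 CPM at 12 h. All 6 libraries with HGF were below both 0 h libraries, and the 3 times did not overlap each other. The fall was -2.43 ± 0.22 at 3 h (5.38-fold lower, adjusted p = 1.76e-06), -3.04 ± 0.23 at 6 h (8.25-fold lower) and -2.0 ± 0.22 at 12 h.

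With wt MET, ELF3 was at 160.0 and 96.1 CPM at 0 h, 109.9 and 103 CPM at 3 h, 48.8 and 55.3 CPM at 6 h, and 60.5 and 72.3 CPM at 12 h. The 3 h pair lay within the range of the 0 h pair, and the later pairs lay below it. The changes at 6 h (-1.30 ± 0.18) and 12 h (-0.95 ± 0.17) were called, the latter also without replicate 1 of 0 h, where it was -0.53. The change of -0.26 ± 0.17 at 3 h was not (adjusted p = 0.329), and it was 0.15 without replicate 1 of 0 h and -0.56, and called, without replicate 2 (adjusted p = 0.00675). The difference between the lines was -2.16 ± 0.28 at 3 h (adjusted p = 0.000128), -1.74 ± 0.29 at 6 h and -1.05 ± 0.28 at 12 h. The last was not called without MET∆14 12 h replicate 1 or 2 (adjusted p = 0.148 and 0.0964), although its size was unchanged at -1.04 and -1.05.

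EHF, the other epithelial member, lies on chromosome 11 (hg38, 34621093 to 34663288, plus strand). It was at 163 and 163 CPM with MET∆14 at 0 h, 129.9 and 130.3 CPM at 3 h, 129 and 138 CPM at 6 h, and 122 and 123 CPM at 12 h, each library with HGF below both without. The test over the 3 times was passed with each library left out (adjusted p = 0.00447, at most 0.0485). The fall was -0.41 ± 0.09 at 12 h (adjusted p = 0.00166). The falls of -0.33 ± 0.09 at 3 h and -0.29 ± 0.09 at 6 h were called with all libraries. The call at 3 h was lost without any 1 of the 0 h or 3 h libraries (adjusted p = 0.063, 0.0599, 0.0725 and 0.0592), and the call at 6 h without either 0 h library (0.0638 and 0.062) or replicate 1 of 6 h (0.102).

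In wt MET cells EHF rested on 4 to 16 counts per library, at 0.323 to 1.06 CPM. Its call at 6 h (-1.20 ± 0.35, adjusted p = 0.0257) was lost without replicate 1 or 2 of 0 h (adjusted p = 0.0771 and 0.102) or replicate 2 of 6 h (-0.90, 0.213). A difference of its response between the lines was not detected (adjusted p = 0.27), at a depth where the SE of the difference was 0.36 at 6 h.

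The PEA3 genes, known to follow ERK activity in other cells, moved within a smaller range than ETS1 and ELF3. ETV4 (hg38, chromosome 17, 43527844 to 43579620, minus strand, with 1.93% of its exon bases in an exon of DHX8 on the other strand) was at 60.3 and 58.6 CPM with wt MET at 0 h, and at 49.7 and 45.9 CPM, 43.3 and 39.7 CPM, and 42.0 and 40.3 CPM at 3, 6 and 12 h. All libraries with HGF were below the 0 h pair. The fall was -0.52 ± 0.12 at 6 h (adjusted p = 0.00445) and -0.53 ± 0.12 at 12 h (adjusted p = 0.00372). The call at 6 h was lost without replicate 2 of 6 h (-0.44, adjusted p = 0.0666), and that over the 3 times without replicate 1 of 0 h (adjusted p = 0.056). At 3 h the change (-0.31 ± 0.12, adjusted p = 0.0952) was called without MET∆14 12 h replicate 1 or 2 (adjusted p = 0.0197 and 0.0303).

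With MET∆14, ETV4 was low, at 3.51 to 6.51 CPM over the 8 libraries, and the groups overlapped. It was not called over the 3 times (adjusted p = 0.0689), but was without replicate 1 of 3 h, replicate 1 of 6 h or replicate 2 of 12 h (adjusted p = 0.0336, 0.0252 and 0.0205). Between the lines the response differed by 0.82 ± 0.22 at 12 h (adjusted p = 0.0126), and it was not called without MET∆14 0 h replicate 1 (0.74, adjusted p = 0.0609) or at 12 h (0.64, 0.0691). Its test over the 3 times (adjusted p = 0.0338) was passed in 7 of 16 fits that left out 1 library, and furthest from it without MET∆14 0 h replicate 1 (adjusted p = 0.104).

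ETV5 (hg38, chromosome 3, 186046314 to 186110318, minus strand, with 2.84% of its exon bases shared with DGKG) was at 23.0 and 24.9 CPM with MET∆14 at 0 h, 26.5 and 33.1 CPM at 3 h, 27.5 and 25.5 CPM at 6 h, and 39.9 and 36.9 CPM at 12 h. All libraries with HGF were above the 0 h pair, and those of 12 h were highest. The rise at 12 h was 0.68 ± 0.11 (1.60-fold, adjusted p = 0.000187) and held with each library left out. The rise at 3 h (0.32 ± 0.11, adjusted p = 0.0379) was lost without either replicate of 0 h (adjusted p = 0.213 and 0.0752), replicate 2 of 3 h (0.14, 0.46), or either wt MET library of 12 h (0.0505 and 0.0519). It was also lost with the replicate number as a block (adjusted p = 0.0628).

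With wt MET, ETV5 was at 64.0 and 59.2 CPM at 0 h, 50.5 and 53.7 CPM at 3 h, 44 and 47.4 CPM at 6 h, and 63.2 and 61 CPM at 12 h. The 3 h and 6 h pairs were below the 0 h pair, and the 12 h pair was within its range. The fall at 6 h (-0.43 ± 0.10, adjusted p = 0.00477) and the test over the 3 times (0.00692) were lost without replicate 1 of 6 h (-0.35, adjusted p = 0.0755 and 0.0874). At 12 h the response differed between the lines by 0.67 ± 0.15 (adjusted p = 0.00427) with each library left out, while the test over all times (0.00827) was lost without MET∆14 0 h replicate 1 (0.0683).

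ETV1 (hg38, chromosome 7, 13891229 to 13991425, minus strand) was low in both lines. It was at 9.98 and 7.0 CPM with wt MET at 0 h and at 6.74 and 6.06 CPM, 5.27 and 4.31 CPM, and 5.48 and 4.71 CPM at 3, 6 and 12 h, each below the 0 h pair. The falls of -0.82 ± 0.24 at 6 h and -0.73 ± 0.23 at 12 h (adjusted p = 0.0144 and 0.0243) were lost without replicate 1 of 0 h (-0.54 and -0.45, adjusted p = 0.171 and 0.252). The call at 6 h was also lost without replicate 2 of 6 h (0.129), and that at 12 h without replicate 1 or 2 of 12 h (0.0657 and 0.133). With MET∆14 ETV1 was between 0.900 and 2.68 CPM, with a fall of -0.96 ± 0.31 at 6 h (adjusted p = 0.022) that was lost without either 0 h library (0.0681 and 0.0783) or replicate 2 of 6 h (-0.51, 0.306). The tests over the 3 times (adjusted p = 0.0342 with wt MET and 0.0322 with MET∆14) were passed in 7 and 12 of 16 fits that left out 1 library. They were furthest from it without wt MET 0 h replicate 1 (0.268) and MET∆14 6 h replicate 2 (0.148). A difference of the response between the lines was not detected (adjusted p = 0.152).

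ETV6, the repressor of the set, lies on chromosome 12 (hg38, 11649674 to 11895377, plus strand). With wt MET it was at 15.3 and 11.7 CPM at 0 h, 7.01 and 7.68 CPM at 3 h, 5.57 and 5.11 CPM at 6 h, and 7.10 and 8.01 CPM at 12 h. All libraries with HGF were below the 0 h pair and those of 6 h were lowest. The fall was -0.88 ± 0.16, -1.33 ± 0.16 (2.51-fold lower, adjusted p = 1.95e-05) and -0.84 ± 0.15 at 3, 6 and 12 h, and it was called at each time with each library left out.

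With MET∆14, ETV6 was at 18.4 and 19.1 CPM at 0 h, 14.7 and 17.2 CPM at 3 h, 12.6 and 13.8 CPM at 6 h, and 18.9 and 16.7 CPM at 12 h. Only the 6 h pair was called, at -0.50 ± 0.14 (adjusted p = 0.00902), and not without replicate 2 of 0 h or replicate 1 of 6 h (adjusted p = 0.055 and 0.0622). The test over the 3 times (0.0298) was lost without either library of 0 h (0.064 and 0.0819) or of 6 h (0.152 and 0.0774), and with the replicate number as a block (0.0532). The difference between the lines was 0.84 ± 0.21 at 6 h (adjusted p = 0.00754), a smaller fall with MET∆14, and held with each library left out. Its test over the 3 times (0.0142) was lost without wt MET 0 h replicate 1 (0.0987) or MET∆14 0 h replicate 1 or 2 (0.073 and 0.0549).

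Across the set, the response differed between the lines for 8 of the 10 genes by the F test over the 3 times, where 37.6% of all genes tested did, and for 5 without MET∆14 0 h replicate 1. By time, 7 differed at 3 h (17.4% of all genes), 7 at 6 h (30.2%) and 8 at 12 h (24% of all genes). At 3 h the difference of ETV6 (0.65 ± 0.21, adjusted p = 0.0431) was not called by DESeq2 (0.0598). It was also not called with no filter on low counts (0.0521) or with the replicate number as a block (0.073). With 1 library left out, the differences at 3 h ranged from 0.45 to 0.81 for ETV6 and from 0.36 to 0.69 for ETV5. Of the 8 genes called at some time in both lines, 5 (ETS1, ELK3, ELF3, ETV6 and ETV1) had a mean response of the same sign in both, and the other 3 (ETS2, ELF1 and ETV5) had opposite signs. Of the 4091 genes called in both lines, 69.6% had the same sign and 30.4% opposite signs, close to the division of the ETS genes. With a time course shared by both lines 6 genes were called, where 30.6% of all genes were, and ETS2, ELF1, ETV1 and ETV4 were not.

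**Figure D2:**
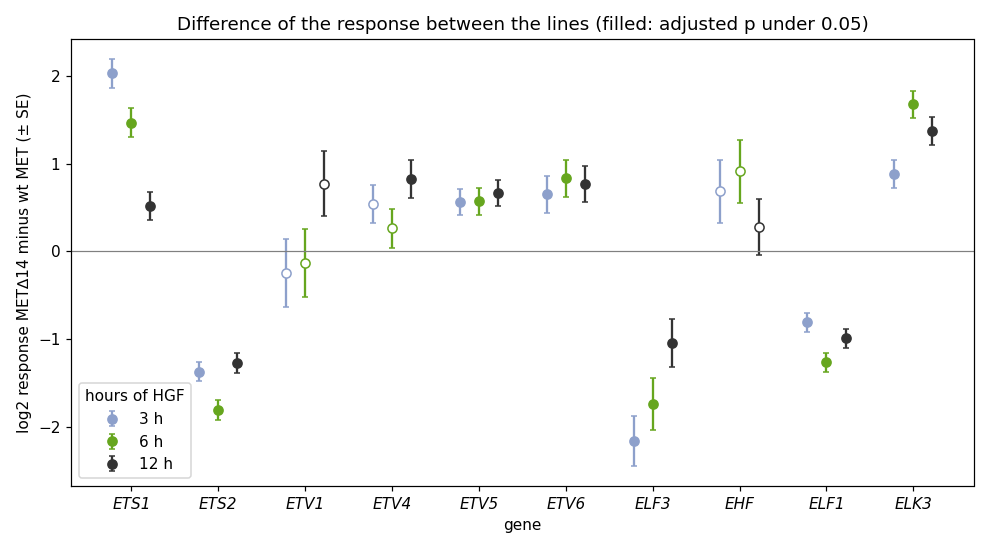
Difference of the log2 response to HGF between the lines (MET∆14 minus wt MET, ± SE) for each ETS gene at 3, 6 and 12 h, filled where the adjusted p was under 0.05. ETS1, ELK3, ETV4, ETV5, ETV6 and EHF lay above 0 and ETS2, ELF3 and ELF1 below it at all 3 times. ETV4 was called at 12 h alone and EHF at no time.

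Successive times were compared within each line. From 3 h to 6 h, 3 ETS genes were called with wt MET (3.1% of all genes) and 2 with MET∆14 (9.77%). From 6 h to 12 h, 2 were called with wt MET (11.6%), among them ETS2, which came down by -0.48 ± 0.08 (adjusted p = 0.00104), and 5 with MET∆14 (18.6%). With 1 library left out the counts from 3 h to 6 h ranged from 0 to 3 with wt MET and from 1 to 3 with MET∆14, and those from 6 h to 12 h from 1 to 4 with wt MET and from 1 to 5 with MET∆14. The fall of ETS1 and the rise of ELK3 with MET∆14 and the fall of ETS2 with wt MET, given above, held with each library left out.

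The genes could also be set against the whole ETS family, the 18 other genes included, by their share of the family's summed CPM per kb. These shares depend on the same exon lengths. The 10 genes made up 72.9% of it at 0 h and 76.4% at 12 h with wt MET, and 55.5% and 54.1% with MET∆14. The share of ETS1 went from 22.1 ± 2.44% (SD, n = 2) at 0 h to 33.9 ± 0.253% at 12 h with wt MET. With MET∆14 it went from 2.26 ± 0.195% at 0 h to 12.9 ± 1.03% at 6 h, and it was 8.07 ± 0.0129% at 12 h. ETS2 remained the most abundant ETS transcript with MET∆14 at every time, at 30.5 ± 0.0303% before and 20.6 to 21.9% after HGF.

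**Figure D3:**
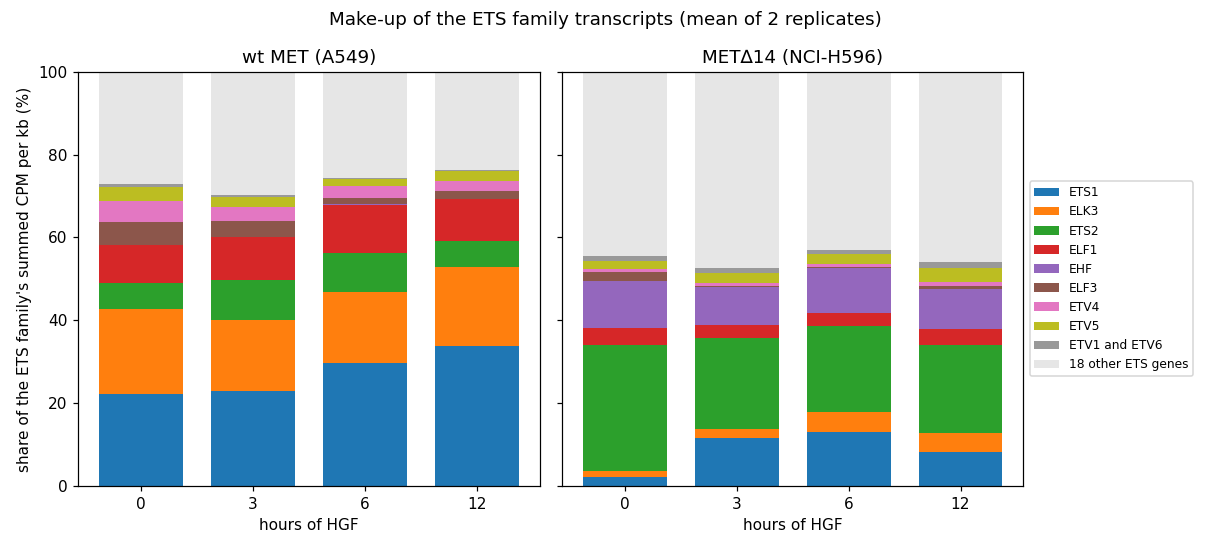
Share of each ETS gene in the summed CPM per kb of these 10 and the 18 other ETS genes (percent, mean of 2 replicates) at 0, 3, 6 and 12 h of HGF, with wt MET on the left and MET∆14 on the right. ETS1 grew from 22.1% to 33.9% with wt MET, and ETS2 was the largest part with MET∆14 at every time.

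Of the 18 other ETS genes, 11 were tested, and the remaining 7 were too low. With wt MET 5 changed at some time, all higher on the mean, and with MET∆14 8 changed, 4 higher and 4 lower, where 40.3% and 54.1% of all genes tested changed. The median responses were 0.245 and -0.165 (log2), against -0.05 over all genes tested in each line. The count for MET∆14 was 5 without either replicate of its 0 h libraries. ETV7, a repressor related to ETV6, was the one gene among them that was both called over the 3 times and past a log2 change of 1. It was at 6.91 and 5.66 CPM at 0 h with MET∆14, 4.56 and 3.51 CPM at 3 h, 1.87 and 2.40 CPM at 6 h, and 0.712 and 1.39 CPM at 12 h, below the 0 h pair at each time. The value at 3 h (-0.65 ± 0.29) was not called (adjusted p = 0.1). The fall was -1.53 ± 0.30 at 6 h (adjusted p = 0.000723) and -2.65 ± 0.35 at 12 h (adjusted p = 3.33e-05). With wt MET it was at most 0.334 CPM. The endothelial ETS factor ERG was at 8.83 to 14.3 CPM with MET∆14, while the endothelial marker PECAM1 was at 0.383 to 1.84 CPM.

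Among 19 kinases, ligases, repressors and cofactors that act on ETS proteins, 10 changed with wt MET (8 higher, 2 lower) and 11 with MET∆14 (4 higher, 7 lower), with median responses of 0.13 and -0.08, where 40.3% and 54.1% of all genes tested changed. In this and the following lists, the strongest rise and fall are those of the mean response among the genes called over the 3 times. The acetyltransferase gene EP300 had the strongest rise with wt MET, from 235 ± 12.2 (SD, n = 2) to 432 ± 8.28 CPM at 6 h, a mean log2 response of 0.77 ± 0.14 (SE, adjusted p = 0.000677). MAPK3, which encodes the kinase ERK1, had the strongest fall there, at -0.52 ± 0.18 (adjusted p = 0.0349). That call was lost in 9 of 16 fits that left out 1 library, and the value was -0.10 (adjusted p = 0.8) without wt MET 0 h replicate 1 and -0.84 without replicate 2. SRF, the partner of ELK3, rose most with MET∆14, from 49.1 ± 0.900 to 117 ± 3.35 CPM at 3 h, and was at 54.6 ± 2.96 CPM at 12 h (mean response 0.77 ± 0.07, adjusted p = 4.45e-07). FBXW7, the substrate receptor of a ubiquitin ligase, fell most, from 100.3 ± 0.814 CPM to between 54.2 and 57.5 CPM (-0.85 ± 0.07, adjusted p = 1.43e-07).

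The transcripts known to follow ERK were called nearly throughout. Of 13 tested, 12 changed with wt MET (10 higher, 2 lower) and 12 with MET∆14 (11 higher, 1 lower), with median responses of 0.60 and 0.73, where 40.3% and 54.1% of all genes tested changed. The response of 12 differed between the lines, where that of 37.6% of all genes did. FOSL1, an AP-1 subunit, was at 48.6 ± 7.21 CPM with MET∆14 at 0 h, 401 ± 40.0 CPM at 3 h, 333 ± 5.95 CPM at 6 h and 110 ± 9.57 CPM at 12 h (mean response 2.33 ± 0.13, adjusted p = 7.08e-09). SPRED3, an inhibitor of RAS signalling, had the strongest rise with wt MET (1.53 ± 0.16, adjusted p = 5.54e-06). IER3, an early response gene, was the 1 gene that was lower with MET∆14 among those called over the 3 times (mean response -0.54 ± 0.11, adjusted p = 0.00086). SPRY1, another inhibitor of RAS signalling, had a mean response of -0.67 ± 0.20 with MET∆14 (adjusted p = 0.0123) but was not called there over the 3 times (adjusted p = 0.0579). With wt MET it was at 4.20 and 4.38 CPM at 0 h, 2.40 and 1.70 CPM at 3 h, 2.42 and 1.35 CPM at 6 h, and 5.72 and 6.26 CPM at 12 h. It was thus below the 0 h pair at 3 h and 6 h (-1.05 ± 0.29 and -1.17 ± 0.28, adjusted p = 0.0193 and 0.00504) and above it at 12 h, where the value of 0.48 ± 0.25 was not called (adjusted p = 0.15). Its mean response of -0.58 ± 0.22 (adjusted p = 0.0467), which joins these directions, was not called in 12 of 16 fits that left out 1 library and reached an adjusted p of 0.195 without replicate 2 of 0 h.

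Of 14 tested genes of proteases and invasion that ETS factors are known to bind, 6 changed with wt MET (3 higher, 3 lower) and 9 with MET∆14 (7 higher, 2 lower), with median responses of -0.12 and 0.82, where 40.3% and 54.1% of all genes tested changed. The counts were 3 without wt MET 12 h replicate 1 and 5 without MET∆14 0 h replicate 1. PLAUR, the urokinase receptor gene, had the strongest rise with wt MET, from 128 ± 2.91 CPM to 240 ± 4.18 CPM at 6 h (mean response 0.70 ± 0.06, adjusted p = 2.02e-06). The metalloprotease gene MMP7 had the strongest fall, from 18.1 ± 0.397 to 4.70 ± 0.388 CPM at 12 h (-1.11 ± 0.16, adjusted p = 8.16e-05). With MET∆14 the metalloprotease gene MMP3 had 0 counts in both 0 h libraries and 27 and 30 counts at 6 h. Against a floor of 3 counts per library it was at least 9.6-fold higher at 6 h. ICAM1, an adhesion receptor gene, had the strongest fall, from 18.3 ± 0.433 to 11.3 ± 0.800 CPM at 6 h (-0.51 ± 0.12, adjusted p = 0.00244).

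Of 17 tested genes of the epithelial state, 7 changed with wt MET (2 higher, 5 lower) and 14 with MET∆14 (4 higher, 10 lower), with median responses of -0.263 and -0.185, where 40.3% and 54.1% of all genes tested changed. The claudin gene CLDN4 had the strongest rise with wt MET, from 6.07 ± 0.609 CPM to 37.4 ± 15.2 CPM at 6 h (mean response 1.61 ± 0.24, adjusted p = 0.000153). CDH1, which encodes E-cadherin, had the strongest fall, from 9.26 ± 4.70 to 2.72 ± 0.249 CPM at 6 h (-1.46 ± 0.24, adjusted p = 0.000304). Its 0 h libraries were at 12.6 and 5.94 CPM, and the mean response was -0.83 (adjusted p = 0.0171) without replicate 1 of 0 h. With MET∆14 the keratin gene KRT18 had the strongest rise (0.65 ± 0.10, adjusted p = 0.000107). GRHL2, a factor for epithelial junction genes, had the strongest fall (-1.81 ± 0.39, adjusted p = 0.00137), on 24 and 32 counts at 0 h and 3 to 11 counts later.

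To describe which genes varied together, the mean of each line was subtracted from the log2 CPM, and Pearson's r was taken over the 16 libraries, which share the HGF time course and, within a line, the 0 h libraries. Between ETS genes, ETS1 ran against ELF3 (r = -0.962) and with ELK3 (0.753), and ELF3 ran against ELK3 (-0.812). ETS2 went with ELF1 (0.859), and ETV1 with ETV4 (0.774). Among all genes whose mean log2 CPM was no lower than 3, the most alike were PITPNB (0.981) and PICALM (0.978) for ETS1, BHLHE40 (0.947) and H2BC21 (0.943) for ETS2, and IRX5 (0.969) and TTC21B (0.968) for ELF1. They were IPO5 (0.974) and ARNTL2 (0.973) for ELK3, TFDP2 (0.957) and HEXIM1 (0.951) for ELF3, and LGR4 (0.958) and HIP1 (0.944) for ETV6. For the remaining genes the values were lower, with KLHL23 (0.88) for ETV5, OXLD1 (0.896) and GLT8D1 (0.89) for EHF, INVS (0.892) and EVPL (0.886) for ETV1, and RBPMS (0.836) and CNKSR3 (0.818) for ETV4.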

How the data were processed

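PolyA RNA of both lines was sequenced with an Illumina TruSeq kit. The authors mapped reads to hg38 and deposited a table of whole-number counts per gene without normalization. The submitters' processing notes list STAR 2.5.0 and RSEM 1.3.2. Whether the counts are rounded RSEM estimates and whether counting used strand is not given in the sources used here. The paper's text names another wt MET line, and groups were taken from the labels. Replicates were biological duplicates in the study's description.

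The deposited counts were tested with edgeR 4.0.16 in R 4.3.3 (filterByExpr with a minimum count of 10 and total of 15, TMM, robust quasi-likelihood fit with 1 coefficient per condition over all 16 libraries). Contrasts set 3, 6 and 12 h against 0 h in the same line, and F tests covered the 3 times and the differences between the lines. Adjustment followed Benjamini and Hochberg over 15067 genes, at a threshold of 0.05. Levels are CPM on TMM-scaled library sizes, and log2 CPM uses a prior count of 2. Exon lengths, positions and overlaps were taken from GENCODE (hg38). DESeq2's size factors differed from the TMM-scaled library sizes by -0.05 to 0.03 per library on the log2 scale, each set centred on its mean. Total counts of 10158590 to 23909304 limit the precision of low genes, and floors of 3 counts cover counting error only.

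The genes and lists were chosen with earlier results of these data known. Named were all 10 genes, other ETS genes called with an absolute log2 change of at least 1, and, in each other list and line, the called gene with the largest rise and fall of the mean response. For each ETS gene the 2 genes with the highest correlation were also named, apart from a gene not reported here. Scripts were tested on simulated data. The alternatives were DESeq2 1.42.0, DESeq2's size factors, other filters on low counts, a minimum change of 1, each line alone, the replicate block, and leaving out each library. Cells with amplified wt MET, which the paper also profiled, were not among the 16 libraries. Figures were drawn with matplotlib 3.10.9.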

Additional observations from a re-analysis of the deposited data

Results flagged for a closer look

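The response to HGF differed between the lines for 8 of the 10 ETS genes by the F test of the difference over 3, 6 and 12 h, each at a time where the single difference was also called by edgeR's quasi-likelihood test. As MET∆14 minus wt MET on the log2 scale, the values at the time of the largest called difference were 2.03 for ETS1 and -2.16 for ELF3 at 3 h. At 6 h they were -1.81 for ETS2, 1.68 for ELK3, -1.26 for ELF1 and 0.84 for ETV6, and at 12 h 0.82 for ETV4 and 0.67 for ETV5. ETS2 and ELF1 rose with wt MET (1.04 and 0.77 at 6 h) and fell with MET∆14 (-0.77 and -0.49). ETV6 fell in both lines at 6 h (-1.33 with wt MET and -0.50 with MET∆14). For ETS1, ELF3 and ELK3 the change at these times was called with MET∆14. The values with wt MET (0.31, -0.26 and 0.14) were not called in the main fit. That of ETS1 was called by DESeq2 (adjusted p = 0.028) and with each line fitted alone (0.0183). It was also called with no filter on low counts (0.0144) and with at least 10 counts in every library (0.0443). With 1 library left out, the wt MET values of ELF3 and ELK3 ranged from -0.56 to 0.15 and from -0.018 to 0.34. Each line is a different MET status, and the part of either in these values was not tested.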

How the results depend on the processing

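The comparisons between lines rest on 1 cell line per MET status, and each condition on 2 libraries. Depth limited ETV1, ETV4 with MET∆14 and EHF with wt MET, which lay at a few CPM or below. Of 86 called values of single ETS genes and contrasts, 58 were called with each library left out in turn, and 76 under every other setting. The other settings counted here do not include the minimum change of 1. A setting that gave no value for a gene or contrast was not counted against it. The values of the called genes kept their direction.

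Requiring an absolute log2 fold change of at least 1 lowered most counts, by construction. The shares of all genes given above are for calls without this minimum. The share at this minimum was not computed, so whether the counts below differ from it was not tested. ETS genes called at any time were then 4 with wt MET and 3 with MET∆14, and those with a difference of response 5 (3 at 3 h and 3 at 12 h). At 3, 6 and 12 h they were 0, 4 and 1 with wt MET and 2, 3 and 3 with MET∆14. Between successive times they were 1 and 0 with wt MET and 0 and 2 with MET∆14. The lists gave, with wt MET and MET∆14, 0 and 1 other ETS genes, 0 and 1 regulators, 2 and 5 protease genes and 3 and 5 epithelial genes, and 7 ERK feedback genes with wt MET. At least 10 counts in every library, which tests fewer genes, gave 5 other ETS genes, 4 protease genes and 7 epithelial genes with MET∆14. With each line fitted alone 6 ETS genes were called with wt MET at 3 h, and with MET∆14 1 from 3 h to 6 h and 3 from 6 h to 12 h.

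The replicate numbers did not pair the samples. The correlation of deviations between samples with the same number was -0.0528 to 0.0345 with wt MET and -0.159 to 0.035 with MET∆14. With the replicate number as a block, 1 ETS gene in place of 2 was called with MET∆14 from 3 h to 6 h, and no other count moved by over 1.5 times. The block also moved ETV4's test of the difference between the lines to an adjusted p of 0.0604.

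By DESeq2, ETV1 with wt MET had an adjusted p of 0.0828 over the 3 times, and 0.0587 at 12 h. With each line fitted alone ETV1 with MET∆14 had 0.1. ELK3 with wt MET at 3 h changed sign with no filter (0.011), with at least 10 counts in every library (0.0035) and with each line alone (0.0060), uncalled in each case.

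With 1 library left out, the counts that moved by over 1.5 times were the ETS genes called with wt MET at 3 h (3 to 6), with MET∆14 at 6 h (5 to 8), and in the difference of response (5 to 8). From 3 h to 6 h the counts were 0 to 3 with wt MET and 1 to 3 with MET∆14, and from 6 h to 12 h 1 to 4 and 1 to 5. Other ETS genes with MET∆14 numbered 5 to 10, and protease genes 3 to 7 with wt MET and 5 to 10 with MET∆14. Uncalled log2 values that changed sign ranged, with wt MET, from -0.56 to 0.15 (ELF3, 3 h), -0.17 to 0.19 (ELK3, 3 h), -0.018 to 0.34 (ELK3, 6 h) and -0.044 to 0.072 (ETV5, 12 h). With MET∆14 they ranged from -0.20 to 0.18 (ETV1, 12 h), -0.026 to 0.41 (ETV4, 3 h), -0.48 to 0.0070 (ETV4, 6 h) and -0.17 to 0.0028 (ETV6, 12 h), and the difference between the lines from -0.58 to 0.29 (ETV1, 6 h). The causes were not tested.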
